A study of Mus musculus with 7 samples.

Results

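The 10 genes described here encode the 70 kDa heat shock protein (Hsp70) system of the mouse: the Hsp70 proteins themselves (Hspa1a, Hspa1b, Hspa2, Hspa8, Hspa9), the larger Hsp110 relatives (Hspa4, Hsph1), the J-domain proteins Dnaja1 and Dnajb1, and the co-chaperone Bag3. They were chosen by gene symbol as 10 of the 24319 rows of a table of FPKM, the fragments of a gene scaled by transcript length and by mapped fragments. All 10 passed the filter for testing, an FPKM of at least 1 in 2 or more libraries, together with 12262 other genes. RNA had been sequenced in 7 libraries of embryos made by somatic cell nuclear transfer, in which a cumulus cell, a somatic cell from around the oocyte, supplies the nucleus of an enucleated oocyte. All embryos are labelled as wild type of strain B6D2F1 at the 2-cell stage, and all had been injected with mRNA of Kdm4a, a histone H3K9 demethylase. The groups are FOC+K, made with fresh oocytes (2 libraries), CROC+K, made with cryopreserved (vitrified and warmed) oocytes (3 libraries), and CROC+K+M, made with cryopreserved oocytes and given 10 µM melatonin, an indole hormone and antioxidant (2 libraries). CROC+K against FOC+K is called the cryopreservation comparison below, CROC+K+M against CROC+K the melatonin comparison, and CROC+K+M against FOC+K the combined comparison. Each library came from a pool of 50 to 100 embryos, so differences between single embryos were not measured. Injected and embryo-made Kdm4a RNA cannot be told apart in these values. In such bulk samples, fewer cells of a type and less RNA per cell cannot be told apart either.

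Hsp70 proteins bind exposed hydrophobic stretches of unfolded proteins and release them in a cycle driven by ATP. J-domain proteins deliver the client and start ATP hydrolysis, while nucleotide exchange factors, among them the Hsp110 proteins and Bag3, restart the cycle by letting ADP go. Hspa8 is the constitutive cytosolic form and Hspa9 the mitochondrial one. Hspa1a and Hspa1b are the inducible pair, transcribed under stress by heat shock factor 1 (Hsf1), and in mouse embryos they are also among the earliest transcripts made from the zygotic genome. Their mRNA level alone therefore does not tell stress from genome activation, and neither role was tested here.

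Hspa1a and Hspa1b were first compared as DNA, because their near identity bears on how far their FPKM can be separated. Promoters of 8 of the 10 genes were taken from RefSeq with build GRCm38.p6. Those of Hspa8 and Hspa9 were not examined. In the 250 bases upstream of the start sites, 247 bases of the pair were identical, and the substitutions from Hspa1a to Hspa1b were C44T, T47C and T249G, counted from 1 at the first printed base. Capitals mark an 8-base match to GAANNTTC, an inverted pair of the GAA units that heat shock factors bind. The upstream bases are printed 5′ to 3′ for both genes, at chr17:34972157-34972406 and chr17:34959239-34959488 on the minus strand.
Hspa1a: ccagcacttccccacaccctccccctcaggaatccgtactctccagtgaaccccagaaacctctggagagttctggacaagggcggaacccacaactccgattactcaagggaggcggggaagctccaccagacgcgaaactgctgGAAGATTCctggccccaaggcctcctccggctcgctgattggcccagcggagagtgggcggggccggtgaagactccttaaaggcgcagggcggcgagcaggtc
Hspa1b: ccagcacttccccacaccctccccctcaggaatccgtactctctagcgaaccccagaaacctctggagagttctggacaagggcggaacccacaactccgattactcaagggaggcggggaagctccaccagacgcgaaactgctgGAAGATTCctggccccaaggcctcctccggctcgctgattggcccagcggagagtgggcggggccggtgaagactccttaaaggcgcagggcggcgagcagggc

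The matched letters began 104 bases before the start in both genes, and a CCAAT box followed 67 bases before the start. Either form of the inverted pair, GAANNTTC or TTCNNGAA, is its own reverse complement, so 1 search covers both strands. GAANNTTC occurs in 6.69% and TTCNNGAA in 7.17% of the 32851 RefSeq promoters of this length, and at least 1 of them in 12.8%. Among the other members, Hsph1 held TTCNNGAA before both of its start sites, and Dnaja1 held GAANNTTC before 1 of 3 start sites, 124 bases upstream. Hspa2, Hspa4, Dnajb1 and Bag3 held neither within these windows. Upstream bases of Hsph1 (chr5:149636337-149636586, minus strand, first start site, match 33 bases before the start) and Hspa2 (chr12:76404120-76404369, plus strand) are printed for comparison, the latter since Hspa2 varied with Hspa1b without such a match. A match describes letters and not a bound factor. Among the genes searched, the sole overlap of matches is that of opposite-strand CCAAT boxes before Dnaja1.
Hsph1: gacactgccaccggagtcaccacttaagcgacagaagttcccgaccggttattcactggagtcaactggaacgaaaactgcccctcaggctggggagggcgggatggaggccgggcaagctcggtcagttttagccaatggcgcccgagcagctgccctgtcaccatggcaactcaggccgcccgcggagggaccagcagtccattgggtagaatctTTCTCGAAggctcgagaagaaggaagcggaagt
Hspa2: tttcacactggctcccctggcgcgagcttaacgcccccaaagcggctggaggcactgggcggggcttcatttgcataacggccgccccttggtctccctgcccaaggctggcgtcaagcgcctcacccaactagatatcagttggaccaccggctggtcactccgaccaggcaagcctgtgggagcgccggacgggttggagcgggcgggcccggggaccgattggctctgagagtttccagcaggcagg

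**Figure D1:**
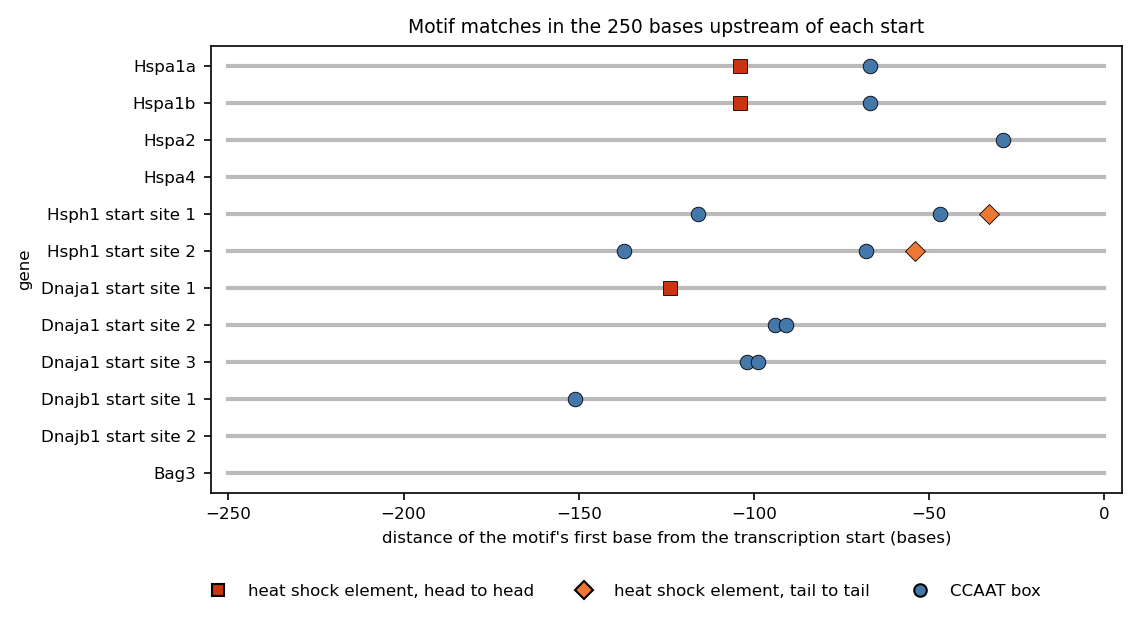
Motif matches in the 250 bases upstream of the RefSeq start sites of 8 genes, with the distance of each match's first base from the transcription start in bases on the x axis and 1 row per start site. Squares and diamonds are the 2 forms of the heat shock element pair and circles are CCAAT boxes on either strand, found in 33.8% of all promoters. Hspa1a and Hspa1b show the same pair of matches at the same distances.

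The likeness extends into the transcripts. Aligned coding sequences of Hspa1a and Hspa1b were identical in 1918 of 1929 columns (99.4%), and 58.8% of the 50-base windows of the Hspa1a transcript also occur in Hspa1b. With Hspa1l, a testis-enriched relative, 7.95% of windows were shared, while with Hspa2 and Hspa8 the count was 0 windows, at a coding identity of 78.2% and 73.9%. Fragments from the shared part cannot be assigned to 1 copy with certainty. The split of FPKM between Hspa1a and Hspa1b is therefore uncertain, and their sum is given below as well.

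Before the gene values, some features of the libraries need stating. FPKM summed to between 552356 and 1017995 per library, and read counts and depth are unknown. CROC+K+M replicate 1 stood apart: all 15 genes of a trophectoderm list reached an FPKM of 1 there, against 7 to 9 elsewhere, with a summed FPKM of 27381 against 70.1 to 144.5, and Cdx2, a defining trophectoderm factor, at 6.97 where the other 6 libraries are listed at 0. Its label gives the 2-cell stage, though the treatment protocol shared by all libraries mentions blastocysts too. Inner cell mass genes, 10 in their list, summed to 74.3 FPKM in this library and to between 41.4 and 74.1 in the others. Of these genes 6 were at 1 FPKM or more in this library, against 3 to 6 elsewhere. The stage of this library was not tested. Oocyte markers were present throughout, with 12 of 12 genes detected in every library, and 11 or 12 of 15 genes of a 2-cell list. Cumulus cell genes were low, with summed FPKM of 21.0 to 34.1. Rn45s, the ribosomal RNA precursor, was 1047 to 2114 in both FOC+K libraries and CROC+K replicate 1 and 175.4 to 265.7 in the other 4 libraries. Kdm4a itself ranged from 497 in CROC+K replicate 1 to 4949 in CROC+K replicate 3. The part of these features in the results was not tested, and values without or within them stand beside the results they touch.

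The 10 genes spanned a wide range of expression. By mean FPKM over the 7 libraries, a scale corrected for transcript length, Hspa8 was highest at 225.1, followed by Hspa9 (57.9), Dnaja1 (38.6), Dnajb1 (34.2), Hspa4 (30.2), Hsph1 (18.6) and Hspa2 (17.4). Hspa1b (3.22), Bag3 (2.88) and Hspa1a (2.63) formed the low end, and since their ranges over the libraries overlap, the order among them is not resolved. Ranges of neighbours also overlapped from Hspa9 through Dnaja1, Dnajb1, Hspa4 and Hsph1 to Hspa2. The constitutive form therefore exceeded the inducible pair in all 7 libraries: Hspa1a and Hspa1b together made up 0.546% to 1.89% of the summed FPKM of the 10 genes, and Hspa8 made up 30.8% to 68.0%.

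**Figure D2:**
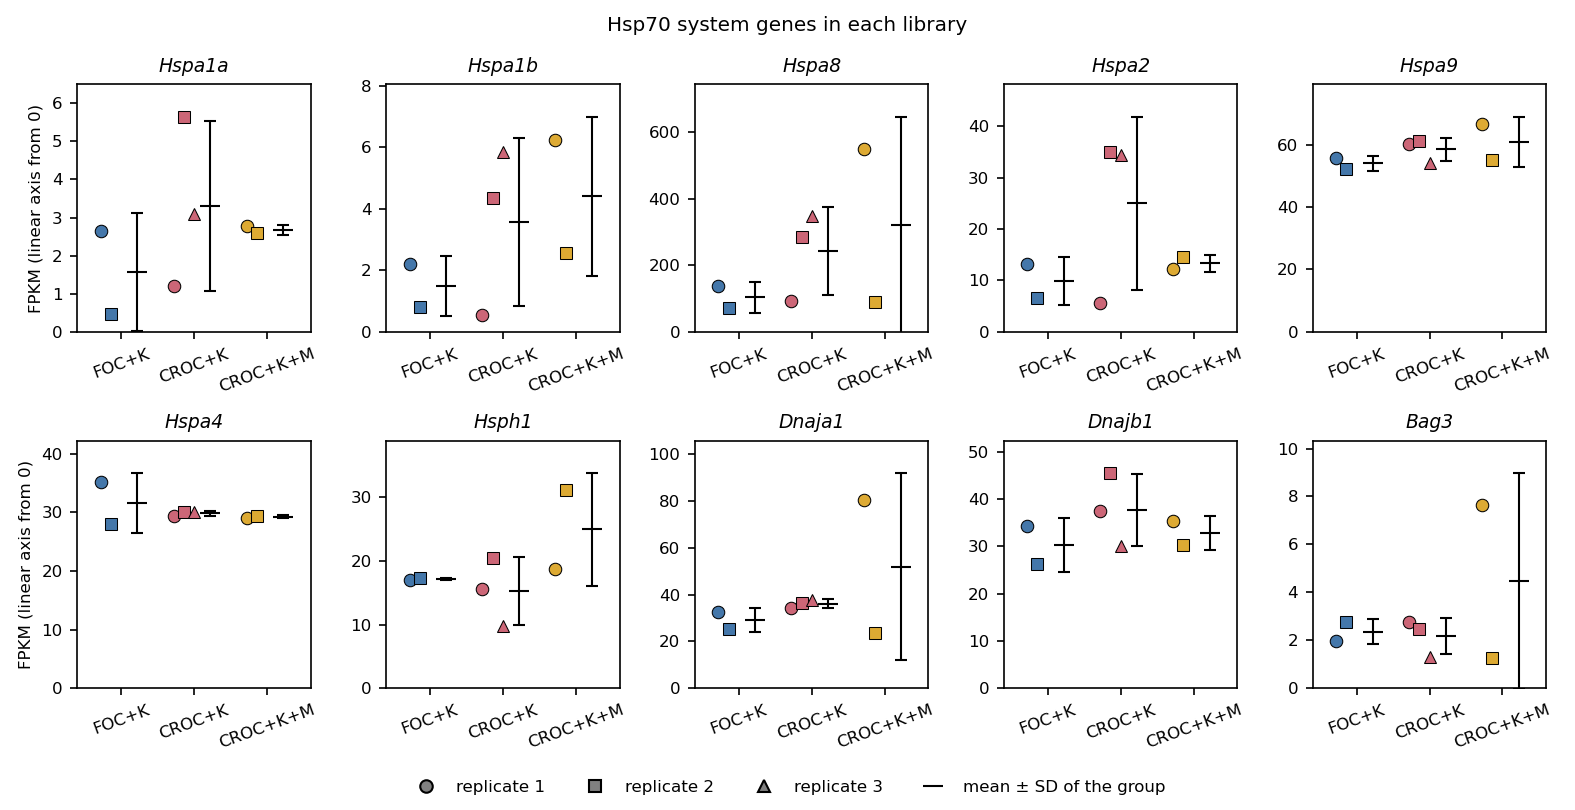
FPKM of the 10 genes (y axes linear from 0, each with its own scale) in the 3 groups on the x axes, with 1 point per library shaped by replicate number and the mean ± SD of the group as a bar; lower bars that would pass below 0 are cut at the axis. Hspa9 and Hspa4 lie in a narrow band in all libraries, while Hspa8, Dnaja1 and Bag3 are highest in CROC+K+M replicate 1.

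Members differed as much in their steadiness as in their level. The SD of log2(FPKM + 1) among libraries of the same group was 0.12 for both Hspa9 and Hspa4, smaller than in all but 1.56% and 1.33% of the tested genes. At the other end, the SD was 1.22 for Hspa8, 1.05 for Hspa2 and 0.93 for Hspa1b, larger than in 95.3%, 92.2% and 89.0% of the tested genes. Hspa1a (79.1%), Bag3 (79.5%), Dnaja1 (70.2%), Hsph1 (48.1%) and Dnajb1 (17.4%) lay between them. Hspa1a, Hspa1b and Bag3 are also the lowest members, where counting noise is larger; its part in their spread was not tested.

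Hspa1a, the first of the inducible cytosolic Hsp70 genes, had an FPKM of 2.66 and 0.466 in FOC+K replicates 1 and 2. CROC+K replicates 1 to 3 had 1.195, 5.65 and 3.10, and with melatonin the values were 2.77 and 2.59. The highest and lowest libraries differed 12.1-fold, and the groups overlapped in every comparison. Hspa1b, its near-identical copy, was at 2.19 and 0.794 with fresh oocytes (FOC+K), 0.555, 4.34 and 5.83 in CROC+K, and 6.23 and 2.58 in CROC+K+M. Both CROC+K+M libraries lay above both FOC+K libraries for Hspa1b, and CROC+K spanned nearly the whole range. Summed over the pair, the FPKM was 4.85 and 1.26 with fresh oocytes (FOC+K), 1.75, 9.98 and 8.94 in CROC+K, and 9.0 and 5.17 in CROC+K+M. The low libraries for the sum were FOC+K replicate 2 and CROC+K replicate 1, from different groups.

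Hspa8, which encodes the constitutive cytosolic chaperone Hsc70, was at an FPKM of 137.2 and 70.9 in FOC+K. It was 92.9, 285.8 and 348.1 in CROC+K and 550.4 and 90.0 in CROC+K+M, so that its 3 high libraries were CROC+K replicates 2 and 3 and CROC+K+M replicate 1. In the other 4 libraries it stayed at or below 137.2, and all 3 groups overlapped. The summed FPKM of the 10 genes followed it, from 230.6 to 809.4, while the sum of the remaining 9 genes ranged only from 159.7 to 259.0. Hspa2, an Hsp70 gene best known for its role in male germ cells, was at 13.2 and 6.61 with fresh oocytes (FOC+K), 5.60, 34.95 and 34.5 in CROC+K, and 12.2 and 14.5 in CROC+K+M. CROC+K replicates 2 and 3 stood above all others, whereas CROC+K replicate 1 was the lowest library of the 7.

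Hspa9, the gene of mortalin, which pulls proteins into mitochondria, was at 55.7 and 52.3 with fresh oocytes (FOC+K), 60.2, 61.1 and 54.1 in CROC+K, and 66.6 and 55.1 in CROC+K+M. This is a range of 1.27-fold, in which the groups overlapped. Among the Hsp110 genes, whose products act as exchange factors, Hspa4 was at 35.2 and 27.9 with fresh oocytes (FOC+K), 29.4, 30.1 and 30.1 in CROC+K, and 29.1 and 29.4 in CROC+K+M. It was the steadiest member, with FOC+K replicate 1 slightly above the rest. Hsph1, the heat-inducible Hsp110 gene, was at 17.1 and 17.3 with fresh oocytes (FOC+K), 15.6, 20.4 and 9.73 in CROC+K, and 18.7 and 31.2 in CROC+K+M. CROC+K+M replicate 2 was its highest library and CROC+K replicate 3 its lowest, 3.21-fold apart. Its high library is thus the melatonin library without raised trophectoderm markers.

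Of the J-domain genes, whose products load clients on Hsp70, Dnaja1 was at an FPKM of 32.6 and 25.3 with fresh oocytes (FOC+K), 34.2, 36.6 and 37.7 in CROC+K, and 80.3 and 23.6 in CROC+K+M. The CROC+K libraries formed a narrow cluster above FOC+K, while the CROC+K+M libraries were the highest and the lowest of all. Dnajb1, the Hsp40 gene that is induced with Hspa1a under stress in many cells, was at 34.4 and 26.2 with fresh oocytes (FOC+K), 37.4, 45.6 and 30.2 in CROC+K, and 35.5 and 30.3 in CROC+K+M. It varied by 1.74-fold with overlapping groups. Bag3, a co-chaperone that links Hsp70 to selective autophagy, was at 1.99 and 2.74 with fresh oocytes (FOC+K), 2.76, 2.45 and 1.31 in CROC+K, and 7.66 and 1.28 in CROC+K+M. Apart from CROC+K+M replicate 1, its FPKM did not exceed 2.76 in any library.

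The cryopreservation comparison addresses what accompanies the use of a vitrified and warmed oocyte. Higher means in CROC+K were found for Hspa1a, Hspa1b, Hspa8, Hspa2, Hspa9, Dnaja1 and Dnajb1, 7 of the 10 genes beside 47.3% of all tested genes, and lower means for Hspa4, Hsph1 and Bag3, but 0 of the 10 passed limma's test at an adjusted p of 0.05. Across all tested genes the share that passed was also 0%, and at an unadjusted p under 0.05 it was 2.19% of genes and 0 of the 10 members. That count rested on single libraries: without CROC+K replicate 1 it went from 269 to 1480 genes and to 2 members, Hspa2 and Hspa1b, with adjusted p of 0.321 and 0.390 in limma. Hspa8 had the widest difference, with a mean FPKM of 242.3 ± 133.0 (SD, n = 3) against 104.0 ± 46.9 (SD, n = 2), a log2 fold change of 1.08 ± 0.84 (SE). For Hspa2 the means were 25.005 ± 16.8 and 9.90 ± 4.66 (0.97 ± 0.74), for Hspa1a 3.31 ± 2.23 and 1.56 ± 1.55 (0.76 ± 0.58), and for Hspa1b 3.57 ± 2.72 and 1.49 ± 0.986 (0.68 ± 0.69). Each had an adjusted p of 0.9996 in limma, and these differences did not exceed the spread between libraries. Dnaja1 was the 1 member whose groups did not overlap (log2 fold change 0.32 ± 0.48, or -0.011 with equal FPKM sums), a pattern that 19.1% of all tested genes showed in either direction and 9.66% in the direction of higher CROC+K.

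The sign of this comparison for the 4 most variable Hsp70 genes rested on CROC+K replicates 2 and 3. Within the 3 libraries of high Rn45s, where CROC+K has replicate 1 only, the log2 difference from FOC+K was -0.09 for Hspa8, -0.65 for Hspa2, -0.08 for Hspa1a and -0.62 for Hspa1b. Without CROC+K replicate 1 the values were 1.67, 1.78, 1.17 and 1.34. Over the 10 genes the median log2 fold change was 0.31, against -0.03 over all tested genes. With libraries set to equal FPKM sums, all-gene medians moved to -0.30 here, -0.14 in the melatonin comparison and -0.44 in the combined one, and the split of the members became 4 higher and 6 lower in each of the 3 comparisons. This scaling shifts all genes together, and the members' own medians were then -0.02, -0.18 and -0.07.

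**Figure D3:**
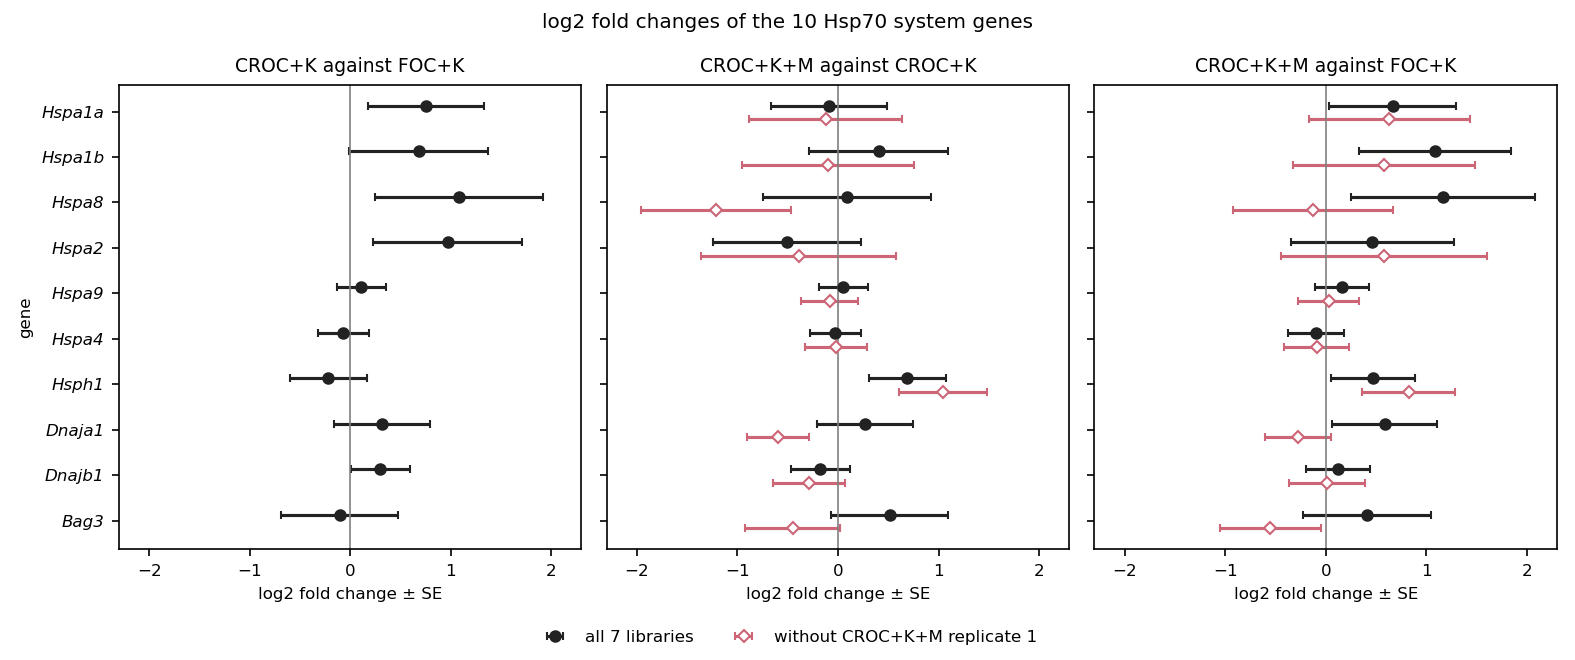
log2 fold change ± SE (x axis, log2(FPKM + 1) scale) of the 10 genes (y axis) in the 3 comparisons, with filled circles for all 7 libraries and open diamonds for the fit without CROC+K+M replicate 1. The diamonds of Hspa8, Dnaja1 and Bag3 lie on the other side of 0 from the circles in both comparisons that involve melatonin.

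Melatonin was compared with none among embryos of cryopreserved oocytes. Hsph1 showed the widest difference of the 10 genes, with means of 24.96 ± 8.86 FPKM with melatonin (SD, n = 2) and 15.2 ± 5.34 without (SD, n = 3), a log2 fold change of 0.69 ± 0.38 (SE) and an adjusted p of 0.557 in limma. Its groups overlapped, as they did for all 10 members, against 23.4% of tested genes whose groups did not overlap. Hspa2, at 13.4 ± 1.65 against 25.005 ± 16.8, had a log2 fold change of -0.51 ± 0.74, and Bag3, at 4.47 ± 4.51 against 2.17 ± 0.766, one of 0.52 ± 0.58. Means were higher in CROC+K+M for 6 members, beside 54.1% of all tested genes, and lower for 4 (4 higher and 6 lower with equal FPKM sums, quantile normalization or median centring), with 0 of 10 past the threshold, where 0% of all tested genes passed it. At an unadjusted p under 0.05 the counts were 0 of 10 members and 10.4% of all tested genes, 1281 in number. Without CROC+K+M replicate 2 they were 2 members, Dnaja1 and Bag3, and 2256 genes, and without CROC+K replicate 1 they were 1 member, Hspa2, and 1997 genes. Within the 4 libraries of low Rn45s, which leave out CROC+K replicate 1, the log2 difference was -0.50 for Hspa8 and -0.25 for Hspa1b. The members' median of 0.07 lay beside 0.06 over all genes.

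The sign or size of several differences in this comparison depended on CROC+K+M replicate 1. Without it, the log2 fold change was -1.21 for Hspa8 (0.09 ± 0.84 with it), -0.59 for Dnaja1 (0.27 ± 0.48) and -0.45 for Bag3 (0.52 ± 0.58), and the split became 1 higher and 9 lower with a median of -0.21. Hsph1 was the 1 member then higher, at 1.05 (unadjusted p = 0.0486, adjusted p = 0.593 in limma), while without CROC+K+M replicate 2 it was at 0.34. The CROC+K+M arm has a single library in that fit, whose spread is taken to be like that of the other groups. Hspa1a, at 2.68 ± 0.124 against 3.31 ± 2.23, and Hspa4 (29.3 ± 0.214 against 29.8 ± 0.399) and Hspa9 (60.8 ± 8.12 against 58.5 ± 3.80) had log2 fold changes of -0.09 ± 0.58, -0.03 ± 0.25 and 0.05 ± 0.24.

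When embryos of cryopreserved oocytes given melatonin were set against embryos of fresh oocytes, 9 of 10 members had a higher mean, beside 52.9% of all tested genes, and Hspa4 a lower one. The split was 4 higher and 6 lower with equal FPKM sums and 7 higher and 3 lower with quantile normalization. Both FOC+K libraries are high and both CROC+K+M libraries low in Rn45s, so group and Rn45s level cannot be told apart within this pair of groups. With the Rn45s level as a term, which is then estimated from the CROC+K libraries alone, the split was 5 higher and 5 lower with a median of 0.0021, and Hspa8 stood at -0.58 and Hspa1b at -0.87. The widest differences were those of Hspa8, with a log2 fold change of 1.17 ± 0.92 (SE), and Hspa1b, at 1.09 ± 0.76, with adjusted p of 0.826 and 0.814 in limma. Hspa1b and Hsph1 (0.47 ± 0.42, or -0.094 with equal FPKM sums) were the 2 members whose groups did not overlap, both higher in CROC+K+M. That pattern of higher CROC+K+M held for 21.3% of all tested genes, so 2 of 10 is near the background, and 41.0% did not overlap in either direction. Past the threshold were 0 members and 0% of genes, and at an unadjusted p under 0.05 they were 0 members and 6.46% of genes, 793 in number. Without CROC+K+M replicate 2 the latter counts were 3 members, Hspa8, Dnaja1 and Bag3, and 2055 genes. The median was 0.47 for the members and 0.04 for all genes. Leaving out CROC+K+M replicate 1 gave a median of 0.02, with 6 members higher and 4 lower, and Hspa8 stood at -0.13. This comparison shares its libraries with the other comparisons, so the 3 are not independent.

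Across libraries, regardless of group, the 4 variable Hsp70 genes varied in much the same order as Kdm4a. Kdm4a had an FPKM of 2014 and 816 with fresh oocytes (FOC+K), 497, 4051 and 4949 in CROC+K, and 2797 and 689 in CROC+K+M. Its 3 highest libraries were also the 3 highest for Hspa8 and for Hspa1b, and its highest pair was the highest pair for Hspa2 and Hspa1a. Over the 7 libraries, on the log2(FPKM + 1) scale, Pearson's r with Kdm4a was 0.734 for Hspa1a, 0.862 for Hspa1b, 0.859 for Hspa8 and 0.844 for Hspa2. It was between -0.437 (Hsph1) and 0.520 (Dnaja1) for the other 6 members. Without CROC+K+M replicate 1 the 4 values over 6 libraries were 0.733, 0.875, 0.942 and 0.902. Dnaja1 then stood near them at 0.674, and the remaining members lay between -0.473 (Hsph1) and 0.351 (Hspa4). By rank over 7 libraries (Spearman), Dnaja1 was at 0.679, close to Hspa2 at 0.714. These correlations are descriptions, since all points share library, scaling and depth between the genes correlated. The 4 genes were grouped by their spread in these same libraries. The share of all tested genes with such r to Kdm4a was not computed, so the order cannot be called particular to them.

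Zscan4d, a marker gene of zygotic genome activation at the 2-cell stage, was at 86.9 and 7.56 with fresh oocytes (FOC+K), 3.44, 257.4 and 332.2 in CROC+K, and 107.1 and 21.9 in CROC+K+M. CROC+K replicate 1 and FOC+K replicate 2 were its lowest libraries, as they were for the summed Hspa1a and Hspa1b. Its r over 7 libraries was 0.842 with Hspa1a, 0.910 with Hspa1b, 0.819 with Hspa8 and 0.913 with Hspa2. The share of all tested genes with such r to Zscan4d was not computed either. Nor was r computed with other early zygotic genes, which did not all share the order of Zscan4d. Tdpoz4 was at 10.1 in CROC+K+M replicate 1, the highest library for Hspa1b and Hspa8, and at 56.9 in FOC+K replicate 1. Libraries also differed in Rn45s and summed FPKM, as given above, and the part of these in the order was not tested. Hspa2 and Hspa1b had r = 0.806 over 7 libraries and 0.984 without CROC+K+M replicate 1.

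**Figure D4:**
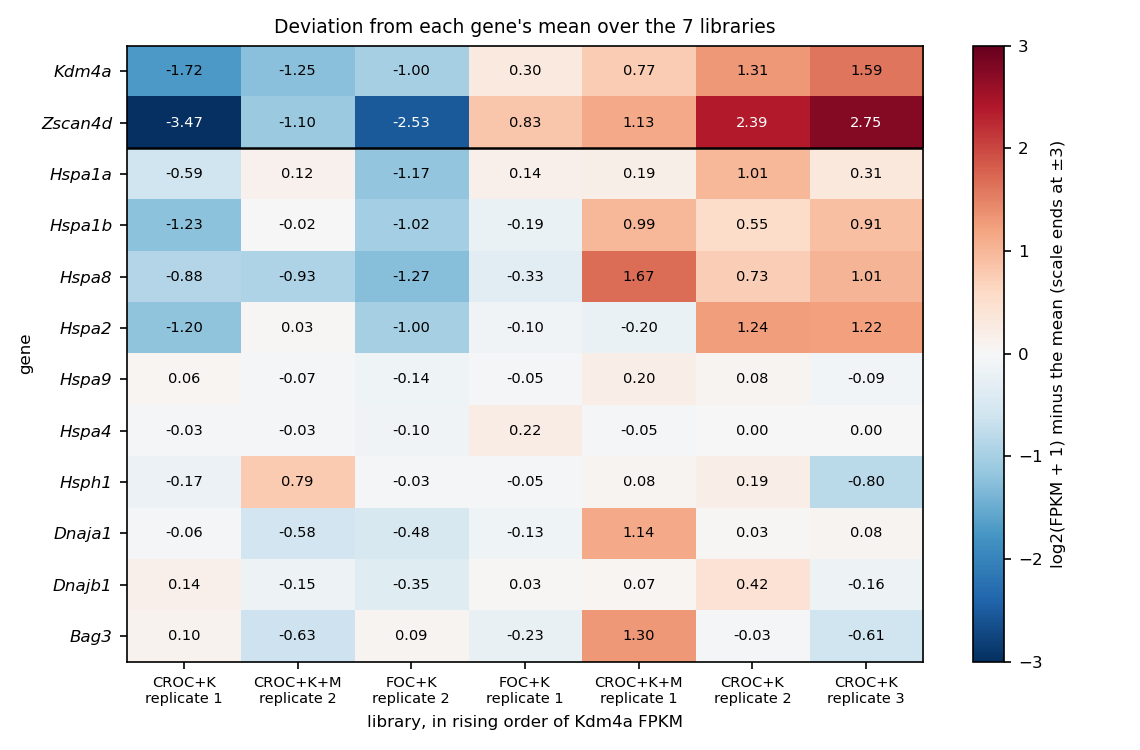
Deviation of log2(FPKM + 1) from each gene's mean over the 7 libraries (colour and printed number), with genes as rows and libraries as columns in rising order of Kdm4a FPKM. Hspa1a, Hspa1b, Hspa8 and Hspa2 go from mostly negative values at the left to mostly positive ones at the right, with Kdm4a and Zscan4d, whereas Hspa9 and Hspa4 stay within 0.22 of their means.

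Genes with the pattern most like a member's were ranked by Pearson's r over the 7 libraries among the 12262 other tested genes. For Hspa1a they were Prpf38a and Ythdc1 (both 0.969) and Wipi2 (0.964). Cenph (0.994), Nit1 (0.989) and Chchd2 (0.988) came first for Hspa1b, and Rpl4 (0.994), Prr13 (0.992) and Trappc4 (0.988) for Hspa8. With so few libraries many genes lie this close: 45, 166 and 124 genes exceeded r = 0.9 with Hspa1a, Hspa1b and Hspa8. The leading genes changed entirely without CROC+K+M replicate 1, to Sh3pxd2a, Lgals1 and Snx5 for Hspa1a, Nap1l1, Rfpl4b and Dynll1 for Hspa1b, and Gm5039, Tmem232 and Pecr for Hspa8.

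Nucleotide exchange factors beyond the members included the gene with the smallest unadjusted p of any chaperone listed. Hspbp1, whose product binds Hsp70 and releases its nucleotide, thereby inhibiting refolding, had an FPKM of 11.1 and 6.20 with fresh oocytes (FOC+K), 2.85, 1.12 and 1.37 in CROC+K, and 18.4 and 16.1 in CROC+K+M. The 3 groups did not overlap, with CROC+K lowest and CROC+K+M highest. In the cryopreservation comparison its difference was -1.80 ± 0.40 on the log2 scale (SE), the smallest unadjusted p (0.00238) of the 12272 genes with an adjusted p of 0.9996 in limma. In the melatonin comparison it was 2.76 ± 0.40, the third smallest unadjusted p (0.000164), with an adjusted p of 0.408. Neither passed in the fit of all 7 libraries, and these comparisons share the CROC+K libraries. Over the alternatives the second difference stayed between 1.72 and 3.31, with adjusted p of up to 0.793 in limma. These alternatives include fits in which CROC+K+M has a single library, and the threshold was not read from those fits. Sil1, the exchange factor of the endoplasmic reticulum Hsp70, was at 4.08 and 2.85 with fresh oocytes (FOC+K), 7.64, 11.3 and 12.6 in CROC+K, and 7.98 and 3.23 in CROC+K+M, a cryopreservation log2 fold change of 1.36 ± 0.43 (adjusted p = 0.9996 in limma).

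Of the 9 exchange factors tested, 3 had a higher mean log2(FPKM + 1) and 6 a lower one in CROC+K than in FOC+K (median -0.05). In the melatonin comparison 5 were higher and 4 lower (median 0.62), with 0 past the threshold in any comparison. That median is the value of Bag6, at 10.7 and 3.59 in CROC+K+M replicates 1 and 2 and 1.96 to 6.69 in CROC+K. Medians of the lists without CROC+K+M replicate 1 were not computed. The 7 other Hsp70 and Hsp110 genes had medians of -0.08, 0.17 and 0.04 in the cryopreservation, melatonin and combined comparisons, the order kept for all lists. Over all tested genes the medians were -0.03, 0.06 and 0.04. Hspa5, the endoplasmic reticulum chaperone BiP, was at 89.9 and 94.7 with fresh oocytes (FOC+K), 84.2 to 126.5 in CROC+K, and 147.5 and 124.4 in CROC+K+M, so CROC+K+M lay above FOC+K. Hspa14, a ribosome-associated Hsp70, was at 62.8 and 66.6 in FOC+K, ranged from 40.4 to 112.7 in CROC+K, and was at 91.6 and 117.3 in CROC+K+M, again above FOC+K.

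J-domain genes of the DnaJA and DnaJB classes divided evenly, 6 higher and 6 lower of 12 in each comparison, with medians of -0.01, -0.08 and -0.04. Dnajb2 was lower in both CROC+K+M libraries (1.54 and 1.45) than in the 3 CROC+K libraries (2.51 to 4.11), with a log2 fold change of -0.83 ± 0.34 (SE) and an adjusted p of 0.465 in limma. Dnajb3 ranged from 0.248 to 12.1 with overlapping groups. In the larger DnaJC class, 16, 18 and 21 of 29 genes had higher means in the 3 comparisons, with medians of 0.01, 0.30 and 0.29. Hscb, the J-domain protein of iron-sulphur cluster assembly that works with Hspa9, was at 96.6 and 102.3 with fresh oocytes (FOC+K), 161.7, 192.5 and 151.1 in CROC+K, and 136.1 and 175.0 in CROC+K+M. Both groups of cryopreserved oocytes lay above fresh ones for Hscb, with log2 fold changes of 0.75 ± 0.26 and 0.63 ± 0.28 and adjusted p of 0.9996 and 0.757 in limma. Dnajc24, a gene of diphthamide synthesis, was at 20.6 in CROC+K+M replicate 1 and at most 1.69 elsewhere.

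Among the 6 other Hsp70 partners, 3, 4 and 4 had a higher mean in the 3 comparisons, with medians of -0.03, 0.49 and 0.43. Dnlz, which keeps Hspa9 soluble, was at 11.8 and 13.6 with fresh oocytes (FOC+K), 18.1, 6.71 and 4.30 in CROC+K, and 25.7 and 22.2 in CROC+K+M. Both CROC+K+M libraries exceeded all others for Dnlz, with a log2 fold change of 1.43 ± 0.52 (SE) over CROC+K and an adjusted p of 0.427 in limma. Tomm70a, the mitochondrial receptor for Hsp70-bound precursors, was at 18.0 in CROC+K+M replicate 1 and between 2.41 and 7.67 elsewhere.

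The Hsp90 family and its co-chaperones, which receive clients from Hsp70, had 11, 13 and 13 of 18 genes with higher means (medians 0.04, 0.15 and 0.27). Ahsa1, an activator of the Hsp90 ATPase, was at 307.2 and 303.8 with fresh oocytes (FOC+K), 324.8, 426.4 and 464.2 in CROC+K, and 217.0 and 238.5 in CROC+K+M, with log2 fold changes of 0.39 ± 0.26 and -0.81 ± 0.26 (SE) in the cryopreservation and melatonin comparisons. Cdc37l1 had the same order, at 25.9 and 26.4, 31.6 to 33.7, and 18.7 and 22.7. Adjusted p for melatonin against none was 0.408 for Ahsa1 and 0.460 for Cdc37l1 in limma. Both genes were thus highest in CROC+K and lowest in CROC+K+M, the reverse of Hspbp1. They were named for the smallest unadjusted p of their list, and the cryopreservation and melatonin comparisons share the CROC+K libraries. The share of all tested genes with such an order was not computed.

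Among the heat shock factor genes, Hsf1 varied little. This gene, the main activator of Hspa1a and Hspa1b, was at 55.0 and 61.9 with fresh oocytes (FOC+K), 57.7, 47.3 and 60.5 in CROC+K, and 40.1 and 53.6 in CROC+K+M, a range of 1.54-fold. Hsf2 was at 1.67 and 1.14 with fresh oocytes (FOC+K), 3.75 and 0.605 in CROC+K replicates 1 and 2, listed at 0 in replicate 3, and 1.33 and 0.631 in CROC+K+M. Of the 5 tested genes in the list, 3, 1 and 1 were higher in the 3 comparisons, with medians of 0.43, -0.24 and -0.18. Hsf2bp, a meiotic partner of Hsf2, was at 23.6 and 33.6 with fresh oocytes (FOC+K), 37.2 to 45.7 in CROC+K, and 27.7 and 22.03 in CROC+K+M. Hsbp1, which binds Hsf1 trimers, was at 256.5 to 378.7 in FOC+K, 417.1 to 548.1 in CROC+K, and 998.3 and 375.6 in CROC+K+M.

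Small heat shock genes tested were 4 of 10, with 4, 2 and 2 higher and medians of 0.13, 0.36 and 0.41. Cryab, the alpha-B crystallin gene, was at 181.2 in CROC+K+M replicate 1 and at most 3.29 elsewhere, including 0 in 2 libraries. Hspb11, an intraflagellar transport gene despite its symbol, ranged from 26.2 to 107.9. Early zygotic genes are a list to which Hspa1a and Hspa1b are related by timing. In the 3 comparisons 12, 3 and 7 of 17 had a higher mean, with medians of 0.29, -0.79 and -0.07. The shares over all tested genes were 47.3%, 54.1% and 52.9%. Tdpoz4, of that list, was at 56.9 and 24.4 with fresh oocytes (FOC+K), 23.3, 27.7 and 59.0 in CROC+K, and 10.1 and 5.69 in CROC+K+M (log2 fold change -2.01 ± 0.52 SE against CROC+K, adjusted p = 0.408 in limma). Usp17ld was at 3.13 to 13.4 in CROC+K and 3.12 and 1.47 in CROC+K+M; both belong to multicopy families, so their levels are uncertain. Against CROC+K, log2 fold changes with melatonin were -0.09 ± 0.58 for Hspa1a and 0.41 ± 0.69 for Hspa1b. The latter became -0.10 without CROC+K+M replicate 1 and -0.25 without CROC+K replicate 1.

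**Figure D5:**
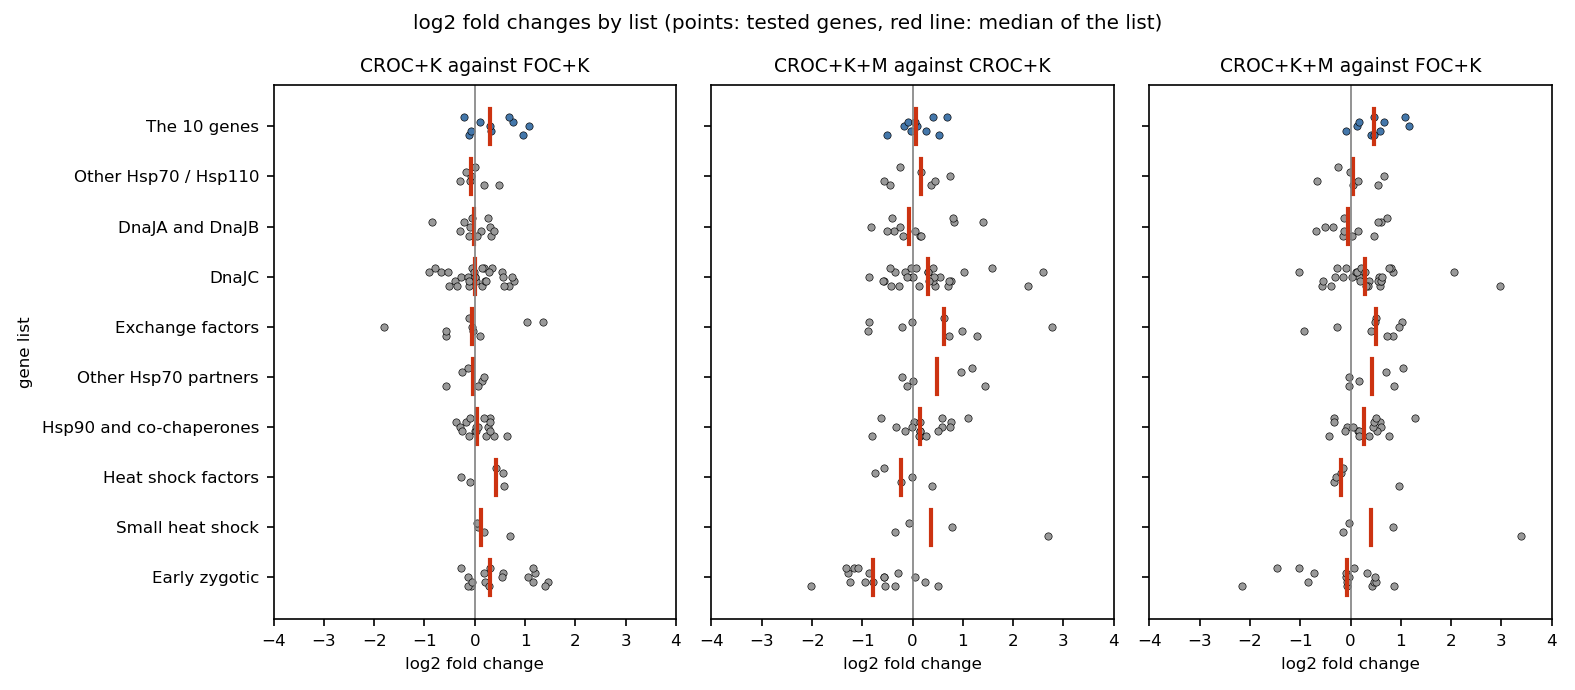
log2 fold change (x axis, log2(FPKM + 1) scale) of each tested gene in the 10 gene lists (y axis) for the 3 comparisons; points are genes, the 10 members in blue, and the red line is the median of the list. Exchange factors reach from -1.80 in the left panel to 2.76 in the middle one, both Hspbp1.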

How the data were processed

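RNA-seq of 7 pooled-embryo libraries was analysed from 1 deposited table of FPKM per gene and library made by the authors. Tools named in the submitters' processing notes, without roles, are Cufflinks 2.2.1, Cuffnorm, STAR 2.5.2b and R 3.3.2, with build mm9. Neither the scaling between libraries nor the annotation is given in the sources used here. Groups came from the sample titles; p-values measure only the spread between these libraries. The 10 genes and all gene lists were chosen with earlier results of these data known. FPKM were used as log2(FPKM + 1) (pseudocount 1), which understates changes of low genes. Genes with FPKM of at least 1 in 2 or more libraries were tested, and 1274 small RNA and ribosomal precursor rows were left out, leaving 12272. limma 3.58.1 with an intensity trend was run in R 4.3.3 in 1 fit of 7 libraries, two-sided, with Benjamini-Hochberg adjustment over all genes and a threshold of 0.05, after checks on simulated data. Group means are given ± SD and log2 fold changes ± SE. Counts of genes with a higher or lower mean go by the mean of log2(FPKM + 1). Named genes are the 10 members, the 2 genes of each list with the smallest unadjusted p in any comparison, Hspa5, Hsf1, Hsf2 and Hspbp1, and the 3 genes most like Hspa1a, Hspa1b and Hspa8; Zscan4d, Kdm4a, Rn45s and Cdx2 describe the libraries and were picked with their values known. Promoters came from RefSeq (GRCm38.p6) and transcripts from GENCODE, aligned with Biopython 1.88; no coordinates were converted. Alternatives covered the pseudocount, filter, scaling, libraries, blocks and moderation.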

Additional observations from a re-analysis of the deposited data

How the results depend on the processing

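No member passed the threshold under any of 537 alternative values, whose lowest adjusted p was 0.0622 in limma. Of 30 member values, 4 kept their direction throughout (Hspa2, Hspa4, Hsph1 and Dnajb1, all in the melatonin comparison), and 51 of the 537 values changed sign. Comparisons are named in parentheses after their values. The cause of these changes was not tested. With equal FPKM sums per library, the sign changed for Hspa9 -0.22, Dnaja1 -0.011, Dnajb1 -0.031 (cryopreservation) and Hspa8 -0.17, Hspa9 -0.20 (melatonin) and Hspa2 -0.081, Hspa9 -0.42, Hsph1 -0.094, Dnajb1 -0.46, Bag3 -0.058 (combined). With quantile normalization, the sign changed for Hspa9 -0.0058, Bag3 0.0023 (cryopreservation) and Hspa8 -0.20, Hspa9 -0.13 (melatonin) and Hspa9 -0.13, Dnajb1 -0.068 (combined). With centring on the all-gene median, the sign changed for Hspa8 -0.065, Hspa9 -0.10 (melatonin). With the Rn45s split as a term, the sign changed for Hspa1a -0.077, Hspa1b -0.62, Hspa8 -0.085, Hspa2 -0.65, Bag3 0.17 (cryopreservation) and Hspa1b -0.25, Hspa8 -0.50 (melatonin) and Hspa1a -0.58, Hspa1b -0.87, Hspa8 -0.58, Hspa2 -1.97 (combined). With the summed pair, an alternative chosen after seeing the data, the sign changed for Hspa1a 0.23 (melatonin). Leaving out each library in turn gave ranges that crossed 0 for Hspa4 -0.23 to 0.092, Hsph1 -0.45 to 0.052, Bag3 -0.27 to 0.11 (cryopreservation), Hspa1a -0.51 to 0.29, Hspa1b -0.25 to 0.91, Hspa8 -1.21 to 1.39, Hspa9 -0.082 to 0.19, Dnaja1 -0.59 to 1.13, Bag3 -0.45 to 1.48 (melatonin), and Hspa8 -0.13 to 2.47, Hspa4 -0.26 to 0.065, Dnaja1 -0.27 to 1.45, Dnajb1 -0.068 to 0.31, Bag3 -0.55 to 1.37 (combined). The count of genes past the threshold, 0 in each comparison, ranged without 1 library from 0 to 658 (melatonin) and from 0 to 546 (combined). The highest values came without CROC+K+M replicate 2, when CROC+K+M replicate 1 alone stood for its group. At an unadjusted p under 0.05 the counts were 269, 1281 and 793 genes in the 3 comparisons, and without 1 library they ranged from 55 to 1480, 845 to 2256 and 223 to 2055, with up to 2, 2 and 3 members among them. Deviations of same-numbered libraries of different groups from each gene's mean over the 7 libraries correlated at -0.451 to 0.0789. Group differences enter these deviations, so the values cannot decide whether replicate numbers pair the libraries. A replicate block, in which CROC+K replicate 3 has no partner, gave 0 calls in each comparison, as without it. It changed the sign for Hsph1 (0.052) and Bag3 (0.11) in the cryopreservation comparison and for Hspa9 (-0.0020) in the melatonin one. A mean FPKM of at least 5 left Hspa1a, Hspa1b and Bag3 untested. Depth is unknown without counts, so counting error of the low genes could not be given.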
